A study of Drosophila melanogaster with 12 samples.

Results

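The change of the transcriptome with age was followed in whole bodies of Ptth mutant female fruit flies (Drosophila melanogaster), as old minus young, across all genes of the expression table. The comparison used 6 of the 12 libraries of the series, 3 of mutants at 1 week and 3 of mutants at 5 weeks, each made from poly(A) RNA of about 15 pooled females. The mutant genotype was named ptth120BC2 in the labels, which did not state its lesion, and no treatment was given. Wild type females named wOB had 3 libraries at 1 week and 3 at 5 weeks. They entered the choice of genes to test and the estimate of spread in every fit to all 12 libraries. Their own changes are given only where the genotypes are compared. Positions are those of the Release 6 assembly, which the submitters named as BDGP6.

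PTTH, the prothoracicotropic hormone, is a brain neuropeptide that acts through the receptor tyrosine kinase Torso on the larval prothoracic gland, where it drives the synthesis of the moulting hormone ecdysone. Loss of the hormone lengthens larval growth, so mutant adults come from larvae that waited longer before metamorphosis. The whole body of an adult female mixes flight muscle, ovary, fat body, gut, brain and cuticle, and in bulk RNA of this kind fewer cells of a type and less RNA per cell cannot be told apart.

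The 6 mutant libraries held between 22352609 and 27166788 reads in genes. Young replicate 1, although labelled female, held transcripts of males. The 17 markers of the male reproductive tract summed to 7072 normalised read counts there, to 18.5 and 17.3 in young replicates 2 and 3, and to at most 36.3 in the old mutant libraries. Ebp, a protein of the male ejaculatory bulb, stood at 6539 in young replicate 1 and at 6.16 and 9.15 in the other young mutant libraries. Replicates 1 and 2 of young wild type held the same transcripts. Each change was therefore computed in a fit to all 12 libraries and in a fit without these 3 libraries, in which the mutants kept young replicates 2 and 3. The median log2 change over all genes was -0.02 in the first fit and -0.01 in the second.

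Ptth itself was still transcribed in the mutants, so its level is no check of the genotype. It stood at 28.3, 18.5 and 22.4 normalised read counts in the young libraries and at 58.6, 54.8 and 43.6 in the old ones. All old libraries lay above all young ones, and Ptth rose by 1.16 on the log2 scale (SE 0.22, adjusted p = 0.00892), although the call was lost without old replicate 1 (adjusted p = 0.0534) and under quantile normalisation (adjusted p = 0.0931). The gene lies on 2L at 575711 to 576896, minus strand, and the gene cold overlaps it on the plus strand. tor, which encodes Torso, stood at 2242, 2408 and 2251 in young and at 2039.8, 2035 and 2289.9 in old mutants, groups that overlapped (-0.12, SE 0.13, adjusted p = 0.791).

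In total, 206 of 11403 tested genes (1.81%) were called, which here means an adjusted p under 0.05 and a change of more than 2-fold between ages. Of these, 90 (0.789%) rose and 116 (1.02%) fell in old mutants. Without the 3 libraries that held male transcripts 247 genes were called (2.17%), 150 (1.32%) higher and 97 (0.851%) lower when old. The count of rises moved more than the count of falls. Both fits called 166 genes (1.46%), of which 71 (0.623%) rose and 95 (0.833%) fell, and 148 of them coded for protein. The 40 calls made only with all libraries were 19 rises and 21 falls, and the 81 calls made only without the 3 libraries were 79 rises and 2 falls. In all 206 called genes the old and young mutant libraries did not overlap. The calls were made on these same libraries, so this largely follows from the selection and adds no support. Over all genes 13.2% had every old library higher and 11.5% every old library lower.

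**Figure D1:**
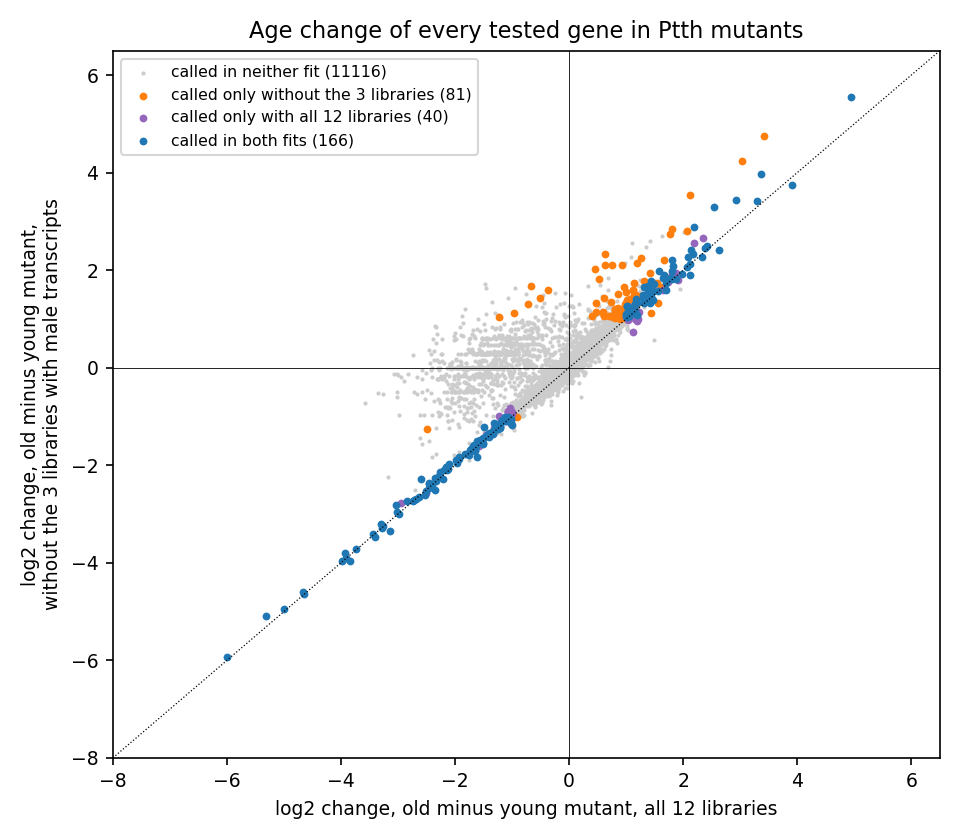
Each point is 1 of the 11403 tested genes, with the log2 change from young to old Ptth mutants in the fit to all 12 libraries on the x axis and in the fit without the 3 young libraries with male transcripts on the y axis. The 166 genes called in both fits follow the dotted line of equality. Of the 81 genes called only without those libraries 79 lie at positive values of the y axis, most of them above that line.

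Genes of the contractile apparatus were lower in old mutants. Of 13 tested genes of the thin filament with troponin and tropomyosin 4 fell and 0 rose, of 16 genes of the thick filament and the giant muscle proteins 7 fell and 0 rose, and of 7 genes of muscle calcium handling 2 fell and 0 rose. The median log2 changes of these lists were -0.78, -0.95 and -0.73, and without the 3 libraries -0.72, -0.91 and -0.69. At an adjusted p under 0.05 and any fold, 9, 15 and 5 members were lower, where 3.35% of all genes were lower and 2.47% higher. Over all genes 1.02% fell past the call. The flight muscle markers Act88F, fln, TpnC4 and Mhc summed to 27097, 25965 and 22849 in young and to 12391, 15161 and 13506 in old mutants. Most of this sum was Mhc, as Act88F, TpnC4 and fln stood at 1639.6, 1835 and 13.7 in young replicate 1. Of these 3 genes TpnC4 and fln fell and Act88F did not (0.42). Whether flight muscle made up less of the old bodies was not tested.

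Scp1, which encodes a sarcoplasmic calcium-binding protein, had the largest called muscle change. It stood at 10936, 8783 and 10589 normalised read counts in young mutants and at 426, 424 and 342 in old mutants (-4.66, SE 0.15, adjusted p = 9.04e-09, and -4.60 without the 3 libraries). Troponin C genes, the calcium sensors of the thin filament, fell too. TpnC4, the isoform of indirect flight muscle, went from 1835, 1623 and 1986 to 91.2, 89.7 and 44.4 (-4.64, SE 0.25, adjusted p = 1.22e-06). The gene overlaps CG30438 (named Ugt50B3 in the later annotation) on the opposite strand, which fell from 372, 219 and 203 to 80.0, 84.7 and 109 (-1.49, adjusted p = 0.0184), and the sources used here do not say whether reads were counted by strand. TpnC41C fell by less, from 1123, 869.8 and 1186 to 273, 247 and 209 (-2.12, SE 0.15, adjusted p = 6.96e-06).

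Among the actins, Act79B, an isoform of the adult thorax, fell from 6239, 5515 and 5924 to 1347, 1311 and 1365 (-2.13, SE 0.12, adjusted p = 1.83e-06). Act87E was lower in every old library, at 2165, 2279 and 2037 against 4745, 4102 and 4200.0, but its change lay at the 2-fold limit (-1.01 with all libraries, -0.94 without the 3 libraries, and under 2-fold also without young replicate 1 or old replicate 3 alone). Act88F, the actin of indirect flight muscle, was not called in mutants. It stood at 1639.6, 1317 and 1223 in young and at 1564, 2783 and 1462 in old mutants, and the groups overlapped (0.42, SE 0.30, adjusted p = 0.647).

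Among genes of the thick filament and the Z-disc, Mf, which encodes the thick filament protein myofilin, went from 26884, 23348 and 28509 to 6582, 6910.1 and 6579 (-1.97, SE 0.12, adjusted p = 3.47e-06). Strn-Mlck, a giant protein with a myosin light chain kinase domain, fell from 5680.0, 5824 and 4292 to 1792, 2241 and 1798 (-1.43, SE 0.15, adjusted p = 1.86e-04). Mlc1, the alkali light chain of myosin, stood at 5135, 4359 and 5278 in young and at 2091, 2231 and 2006 in old mutants (-1.22, SE 0.12, adjusted p = 1.28e-04). These 3 genes were called in both fits. Unc-89 (Obsc), the obscurin of the M-line, was called with all libraries (4592, 4930.4 and 3049.7 to 1548, 1926 and 2001, -1.18, adjusted p = 0.0032) and not without the 3 libraries (-1.10, adjusted p = 0.0698). Zasp67, a PDZ protein of the Z-disc family, fell close to 0, from 171, 175 and 158 to 13.03, 11.96 and 5.65 (-3.98, SE 0.31, adjusted p = 1.51e-05). fln, the flightin gene, was counted at only 13.7, 18.5 and 24.4 in young and 0.931, 1.99 and 0.807 in old mutants. An antisense RNA overlaps it, and its call (-3.15, adjusted p = 0.0194) was lost without young replicate 2 or 3 or old replicate 1 or 3 (adjusted p from 0.0745 to 0.101). SERCA, the pump that returns calcium to the sarcoplasmic reticulum, fell from 33250.5, 31284 and 27776 to 12281, 12678 and 12608 (-1.29, SE 0.08, adjusted p = 4.74e-06), and the groups lay far apart beside their spread.

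**Figure D2:**
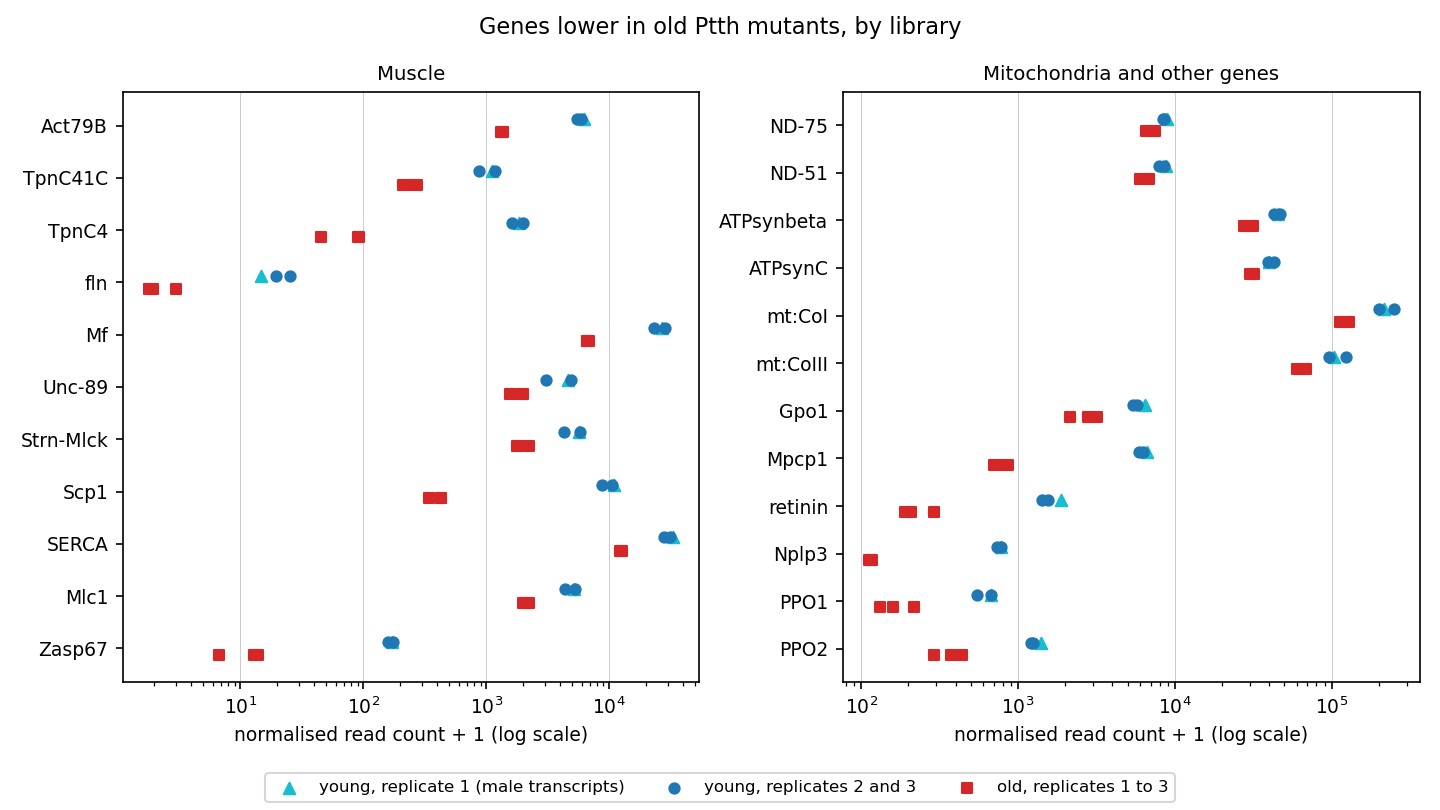
Normalised read counts plus 1, on a log axis, of muscle genes (left) and of mitochondrial, corneal lens, neuropeptide and prophenoloxidase genes (right) in each of the 6 mutant libraries. Triangles are young replicate 1, which held male transcripts, circles are young replicates 2 and 3, and squares are the old libraries, which lie below all young libraries in each gene shown; Scp1 stood at 8783 to 10936 in young and at 342 to 426 in old mutants.

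Transcripts of energy metabolism were lower by smaller amounts that were shared across the genes of the respiratory chain. Of 36 tested nuclear genes of complex I, the NADH dehydrogenase, 1 fell and 36 had a lower estimate in old mutants, with a median log2 change of -0.41. Of 35 nuclear genes of complexes II to V, 0 were called and 34 had a lower estimate, with a median of -0.55. Over all genes 1.02% fell past the call, and 3.35% were lower at an adjusted p under 0.05 and any fold. The any-fold share over all genes was not counted without the 3 libraries. At an adjusted p under 0.05 and any fold, 27 and 34 members of these lists were lower with all libraries and 6 and 25 without the 3 libraries, while the medians hardly moved (-0.38 and -0.53). Of the 13 genes of the mitochondrial genome, 0 were called, all had lower estimates and 7 passed at any fold, with a median of -0.68 (1 of 13 and -0.73 without the 3 libraries).

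Single subunits show the size of this shift. ATPsynbeta, the catalytic subunit of ATP synthase, stood at 45262, 42691 and 46870.2 in young and at 31587, 30206 and 27715 in old mutants (-0.59, SE 0.07, adjusted p = 5.99e-04). The groups did not overlap, yet the change stayed under the 2-fold limit of a call. ATPsynC, of the membrane rotor, was at 39553, 39141 and 42581 and then at 31457, 31861 and 30022 (-0.38, SE 0.06, adjusted p = 0.00219). mt:CoI, the mitochondrially encoded subunit I of cytochrome oxidase, was at 216471, 199168 and 247917 in young and at 128706, 122759 and 112262 in old mutants (-0.86, SE 0.13, adjusted p = 0.00165). ND-51 of complex I passed at any fold (8782, 7919 and 8493 against 6837, 6736 and 5968, -0.37, adjusted p = 0.0252). ND-75 of the same complex did not (8899, 8451 and 8488 against 7459.6, 7325 and 6545, -0.28, adjusted p = 0.0575).

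ND-B8, another subunit of complex I, had the largest fall among the named genes. Its count went from 251, 197 and 252 to 2.79, 11.96 and 0 (-5.99, SE 0.68, adjusted p = 3.06e-04, and -5.93 without the 3 libraries). Gs1l overlaps it on the opposite strand. CG34172 (COX7AL2), a relative of a cytochrome oxidase subunit, fell from 862, 719 and 996 to 119, 152 and 124 (-2.69, SE 0.16, adjusted p = 2.88e-06). Mpcp1, a phosphate carrier of the inner mitochondrial membrane, fell from 6678, 5941 and 6259.9 to 857, 789 and 697 (-3.01, SE 0.10, adjusted p = 9.04e-09). In each of these genes every old library lay far below every young one.

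Of the 17 genes of the tricarboxylic acid cycle, 0 were called, 12 were lower at any fold and 1 was higher, with a median of -0.40. Over all genes 1.02% fell past the call, and 3.35% were lower and 2.47% higher at any fold. Acon, the mitochondrial aconitase, stood at 22856, 22477 and 20700.4 in young and at 12549.9, 12742 and 12008 in old mutants (-0.82, SE 0.06, adjusted p = 1.51e-05). Among 21 genes of glycolysis and glycogen use 1 fell past the call, 9 were lower and 1 was higher at any fold, and the median was -0.19. The called gene was Gpo1, the mitochondrial glycerol 3-phosphate dehydrogenase that works beside glycolysis in flight muscle, at 6472, 5764 and 5395 in young and 3203, 2795 and 2136 in old mutants (-1.13, SE 0.16, adjusted p = 0.00142). Without old replicate 3 its change was -0.97, just under the limit. Ald, the glycolytic aldolase, stood at 33911, 30974 and 33779 in young and at 18685, 17346 and 15432 in old mutants (-0.94, adjusted p = 2.66e-04), close to the 2-fold limit. Gapdh2, a later enzyme of the pathway, was at 26930.5, 27454 and 29976 and then at 25087, 24052 and 25060.3 (-0.18, adjusted p = 0.208).

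**Figure D3:**
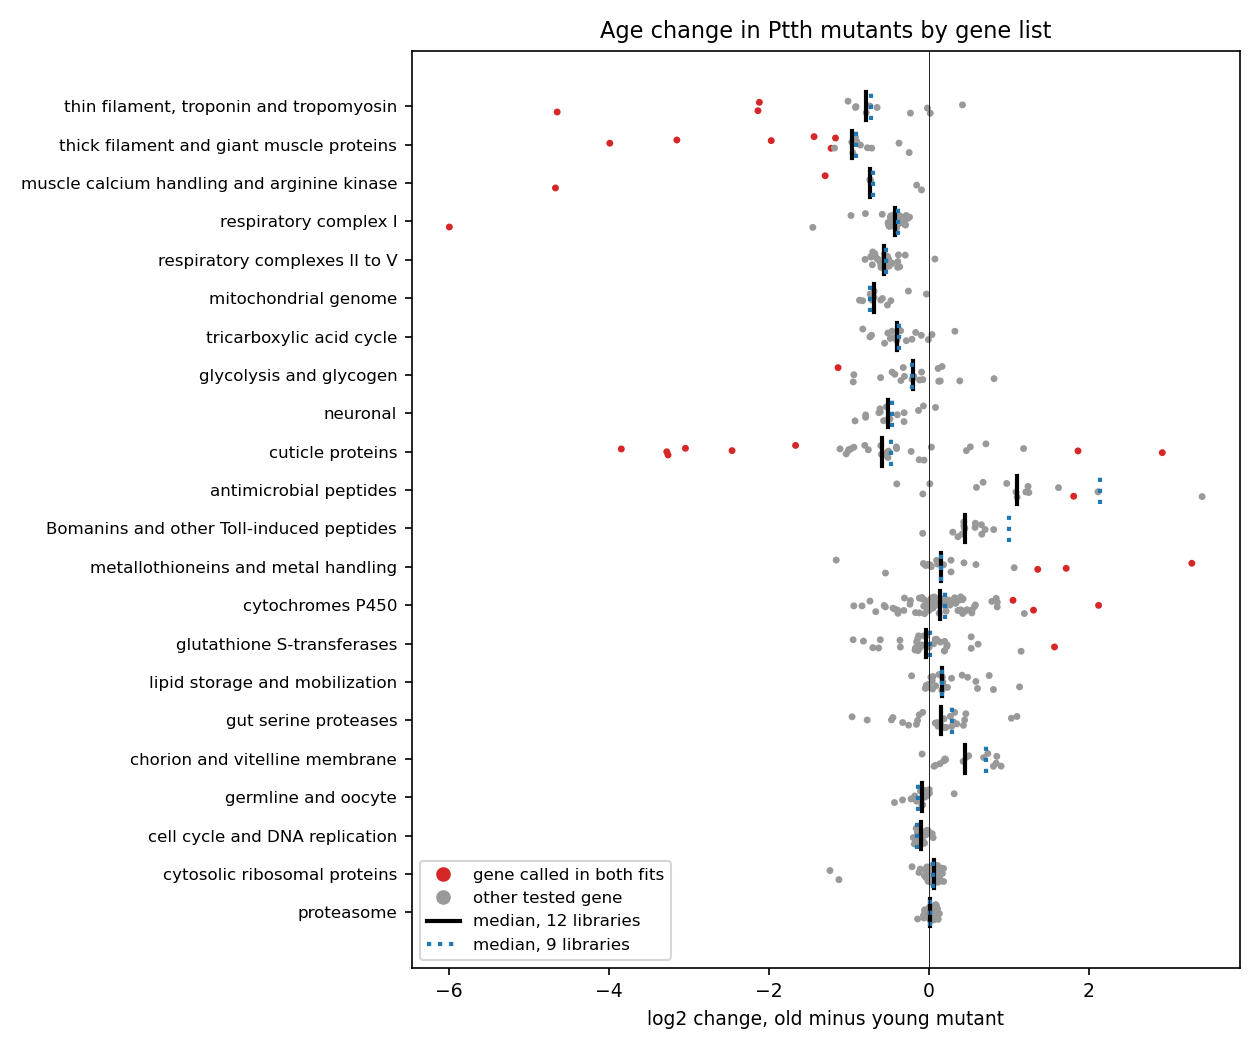
Log2 change from young to old mutants of the tested members of 22 gene lists, with genes called in both fits in red, the median over 12 libraries as a black bar and the median over the 9 libraries without male transcripts as a dotted blue bar. The lists of muscle, respiratory chain and mitochondrial genome lie left of 0, with medians from -0.41 to -0.95, and the medians of the antimicrobial peptides stand apart, at 1.11 and 2.14.

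Cuticle genes changed in both directions. Of 32 tested cuticle protein genes 3 rose and 9 fell, and without the 3 libraries 2 rose and 6 fell. Over all genes 0.789% rose and 1.02% fell, and 1.32% and 0.851% without the 3 libraries. The adult cuticle gene Acp65Aa fell from 89.9, 80.9 and 91.5 to 5.58, 5.98 and 16.1 (-3.26, SE 0.47, adjusted p = 0.00144). Cpr49Ag, one of the chitin-binding Cpr family, fell from 59.6, 58.9 and 45.7 to 9.31, 9.96 and 8.07 (-2.46, SE 0.22, adjusted p = 4.99e-05). Cpr62Bc was counted at 17.6, 23.7 and 21.3 in young and at 0.931, 0 and 0.807 in old mutants, 66 reads against 2, a ratio of 34.8 with a 95% counting interval of 9.26 to 293 (exact binomial, counting error only). Cpr47Ea fell from 24.4, 24.6 and 26.4 to 0.931, 1.99 and 2.42 (-3.27, SE 0.46, adjusted p = 0.00123). The falls of Acp65Aa, Cpr62Bc and Cpr47Ea missed the threshold under quantile normalisation (adjusted p = 0.0558, 0.13 and 0.146). Acp1, at 29 reads in young and 1 in old mutants (ratio 30.6, interval 5.07 to 1250), was called at an adjusted p of 0.0296 that rose above the threshold when any of the 6 mutant libraries or wild type young replicate 1 was left out (0.0543 to 0.112).

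Other members of this family were higher in old mutants. Cpr66D rose from 67.4, 69.5 and 78.2 to 328, 231 and 242 (1.87, SE 0.15, adjusted p = 2.5e-05). Cpr49Ac rose from 4.89, 0 and 3.05 to 21.4, 25.9 and 16.1 (2.92, SE 0.62, adjusted p = 0.0152), with the call lost without old replicate 1 or 2 (adjusted p = 0.073 and 0.0796). The called cuticle genes therefore did not share a direction. Of the 32 tested, 25 had lower and 7 had higher estimates, with a median of -0.58 (-0.47 without the 3 libraries). At an adjusted p under 0.05 and any fold 10 were lower and 3 higher, where 3.35% and 2.47% of all genes were.

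Genes of the eye, the nervous system and the antenna included single large falls. retinin, a protein of the corneal lens, fell from 1865, 1425 and 1546 to 288, 188 and 206 (-2.83, SE 0.18, adjusted p = 3.47e-06). ninaD, the scavenger receptor by which flies take up the carotenoids for their visual pigment, fell from 144, 113 and 143 to 18.6, 36.9 and 26.6 (-2.28, SE 0.32, adjusted p = 0.00107). It was the only called gene among 23 of phototransduction in the fit to all libraries, where 1.81% of all genes were called. Rh4, an ultraviolet opsin, was higher in every old library, at 775, 635 and 661 in young and at 1409.8, 1334 and 1256 in old mutants (0.95, adjusted p = 0.00102), and was called without the 3 libraries (1.04, adjusted p = 0.0072). ninaE, the main rhodopsin, stood at 25417, 21598 and 23557 in young and at 31330.1, 28998 and 26347 in old mutants (0.30, adjusted p = 0.244). Nplp3, a precursor of neuropeptide-like peptides, fell from 778, 780.1 and 733 to 115.4, 112 and 113 (-2.74, SE 0.19, adjusted p = 6.83e-06). It went against most of the 25 neuropeptide genes, of which 21 had higher estimates (median 0.45), while Ptth alone rose and Nplp3 alone fell past the call. Over all genes 0.789% rose and 1.02% fell past the call.

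Of 16 neuronal genes 0 were called, but 15 had lower estimates and 7 passed at any fold (median -0.51). Over all genes 3.35% were lower at an adjusted p under 0.05 and any fold. nrv3, a subunit of the neuronal sodium pump, stood at 2514, 2272 and 2765 in young and at 1429, 1519.5 and 1415 in old mutants (-0.79, SE 0.11, adjusted p = 9.53e-04). Among 30 odorant-binding protein genes, which encode small carriers of hydrophobic ligands, Obp44a fell from 1209, 1234 and 1354 to 474, 368 and 498 (-1.51, SE 0.15, adjusted p = 1.17e-04). Obp56d rose from 2436, 1929 and 2067 to 5515, 3708 and 4321 (1.06, SE 0.25, adjusted p = 0.0252). Its call was lost without young replicate 2 or 3 or old replicate 1 or 3 (adjusted p from 0.0741 to 0.126). Obp56a changed by 0.86 with all libraries and by 1.22 without the 3 libraries. Over all genes 0.789% rose and 1.02% fell past the call with all libraries.

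Genes of blood cells were divided. PPO1 and PPO2, the prophenoloxidases that crystal cells use for melanisation, fell in old mutants. PPO1 went from 673, 546 and 673 to 158, 215 and 130.0 (-1.93, SE 0.22, adjusted p = 3.4e-04). PPO2 went from 1401, 1251 and 1202 to 288, 440.4 and 371 (-1.82, SE 0.21, adjusted p = 3.57e-04). Both were called also without the 3 libraries (adjusted p = 0.00816 and 0.0117). The other 13 of the 15 genes of haemocytes and thioester proteins were not called, and the list had a median of 0.03. Over all genes 1.02% fell past the call. The plasmatocyte markers Hml, NimC1 and eater summed to 3516, 3553 and 2599.5 in young and to 3076, 3849 and 3851 in old mutants, which overlapped. NimC4, a phagocytosis receptor of glia and macrophages that was picked out after its values were seen, fell from 49.8, 30.8 and 54.9 to 1.86, 3.99 and 5.65 (-3.30, SE 0.43, adjusted p = 8.19e-04).

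Antimicrobial peptide genes, which the Imd and Toll pathways induce on infection, gave different counts of calls with and without the 3 libraries. Of 15 tested genes 13 had higher estimates in old mutants, but 1 rose past the call with all libraries and 4 without the 3 libraries, and the median log2 change moved from 1.11 to 2.14. Over all genes 0.789% rose with all libraries and 1.32% without the 3 libraries. The list summed to 12139 in young replicate 1, to 4462 and 5376 in young replicates 2 and 3 and to 11131, 5887 and 11380.3 in old mutants. Young replicate 1 thus stood above the old libraries. The median over all libraries was smaller with count models on the recovered reads, 0.49 with edgeR and 0.45 with DESeq2.

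Def, the defensin gene, was the member called in both fits. It stood at 173, 105 and 135 in young and at 704, 260.1 and 589 in old mutants (1.81, SE 0.36, adjusted p = 0.0114, and 1.99, adjusted p = 0.0485, without the 3 libraries), with the call lost without young replicate 2 or old replicate 1 or 3 (adjusted p from 0.0557 to 0.0586). AttC, an attacin, showed the part of young replicate 1. It was at 1819 there, at 186 and 269 in young replicates 2 and 3 and at 1682, 553 and 1337 in old mutants (1.25, adjusted p = 0.477, and 2.26, adjusted p = 0.0471, without the 3 libraries). DptA and Dro, a diptericin and drosocin, were likewise called only without the 3 libraries (4.75, adjusted p = 0.0379, and 3.54, adjusted p = 0.0461). DptA stood at 450.5 in young replicate 1, 19.3 and 37.6 in the other young libraries and 954, 207 and 2178 in old mutants. Drs, the antifungal drosomycin, was at 6458, 3922 and 4549 and then at 5043, 4287 and 4585 (-0.07, adjusted p = 0.928), so its groups overlapped.

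The 14 tested Bomanins and related Toll-induced peptides had the same outlying library. They summed to 27079 in young replicate 1, to 8949 and 12449 in young replicates 2 and 3 and to 19480.0, 16647 and 24093 in old mutants. None was called with all libraries and 1 without the 3 libraries, and the median was 0.45 and 1.00. Over all genes 0.789% and 1.32% rose in these fits. The higher immune peptide counts and the male transcripts occurred in the same young library, and the part of the male transcripts in this result was not tested. Of 15 peptidoglycan recognition genes 0 were called and 2 were higher at any fold, where 2.47% of all genes were. At an unadjusted p under 0.05 the list held 6 genes. GNBP3, a sensor of fungal glucans counted with them, was 1 of the 2 (748, 646 and 742 against 1082, 1072 and 1048, 0.59, adjusted p = 0.0185). Of 11 Imd and 13 Toll signalling genes 0 were called and 0 passed at any fold, with medians of -0.02 and 0.04. Their log2 changes ran from -0.41 to 0.19 and from -0.11 to 0.43. At an unadjusted p under 0.05 the lists held 0 and 2 genes. As 1.81% of all genes were called, 0 calls in lists this small is near that share.

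Of 13 genes of the JAK-STAT pathway and its Turandot targets, 1 rose, where 0.789% of all genes rose. It was upd3, the cytokine that damaged gut and blood cells release, at 9.77, 13.2 and 6.10 in young and at 28.8, 26.9 and 25.0 in old mutants (1.44, SE 0.27, adjusted p = 0.0071, and 0.108 under quantile normalisation). Stat92E, the transcription factor of the pathway, was at 6769.5, 7679 and 7231 and then at 7335, 7356 and 7184 (0.01, adjusted p = 0.946).

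Members of the metal handling list rose. Of 18 tested genes 3 rose and 0 fell with all libraries, and 4 rose without the 3 libraries, where 0.789% and 1.32% of all genes rose. MtnB, a metallothionein that binds copper and cadmium, rose from 13.7, 8.79 and 12.2 to 198, 85.7 and 102 (3.29, SE 0.50, adjusted p = 0.00205). MtnA, the more abundant metallothionein, rose from 3887, 2962 and 3307 to 11270.3, 11888 and 10151 (1.72, SE 0.22, adjusted p = 7.8e-04). MtnD was called only without the 3 libraries (1.41, adjusted p = 0.0119, against 1.07, adjusted p = 0.113), as young replicate 1 had 153 and the other young libraries 80.9 and 70.1. Tsf1, the iron-binding transferrin of the haemolymph, rose from 13119.8, 6363 and 7819 to 23599.7, 16911 and 27877 (1.36, SE 0.30, adjusted p = 0.0197). Its call was lost without young replicate 2 or 3 or old replicate 1 or 3 (adjusted p from 0.0804 to 0.0954). The median of the list was 0.15.

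Among detoxification genes the called members were all higher in old mutants. Of 78 tested cytochrome P450 genes, the oxidases of hormones, lipids and toxins, 3 rose and 0 fell (median 0.14), and of 33 glutathione S-transferases 2 rose and 0 fell (median -0.03), where 0.789% of all genes rose. Cyp4e3 rose from 215, 213 and 222 to 1466, 832 and 696 (2.12, SE 0.30, adjusted p = 0.00128). Cyp304a1 rose from 48.9, 44.9 and 37.6 to 122, 131 and 82.4 (1.31, SE 0.26, adjusted p = 0.0103), and Cyp4ac3 from 80.1, 63.3 and 77.2 to 155, 155 and 149 (1.05, SE 0.16, adjusted p = 0.00162). The call of Cyp304a1 was lost without young replicate 3 or old replicate 1 or 2 (adjusted p from 0.0515 to 0.0531), and that of Cyp4ac3 without young replicate 2, where the change was 0.95. Of the glutathione S-transferases, GstD5 went from 47.9, 23.7 and 16.3 to 80.0, 83.7 and 79.1 (1.57, SE 0.38, adjusted p = 0.0297), lost without either of young replicates 2 and 3 or any old replicate (adjusted p from 0.0888 to 0.124). GstD2 went from 50.8, 113 and 43.7 to 182, 133 and 119 (1.16, SE 0.30, adjusted p = 0.046) and was lost without the 3 libraries (1.00, adjusted p = 0.238) and when any of 8 single libraries was left out (adjusted p from 0.0608 to 0.203). Of 14 UDP-glycosyltransferases and 14 genes for the removal of superoxide and peroxide 0 were called.

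**Figure D4:**
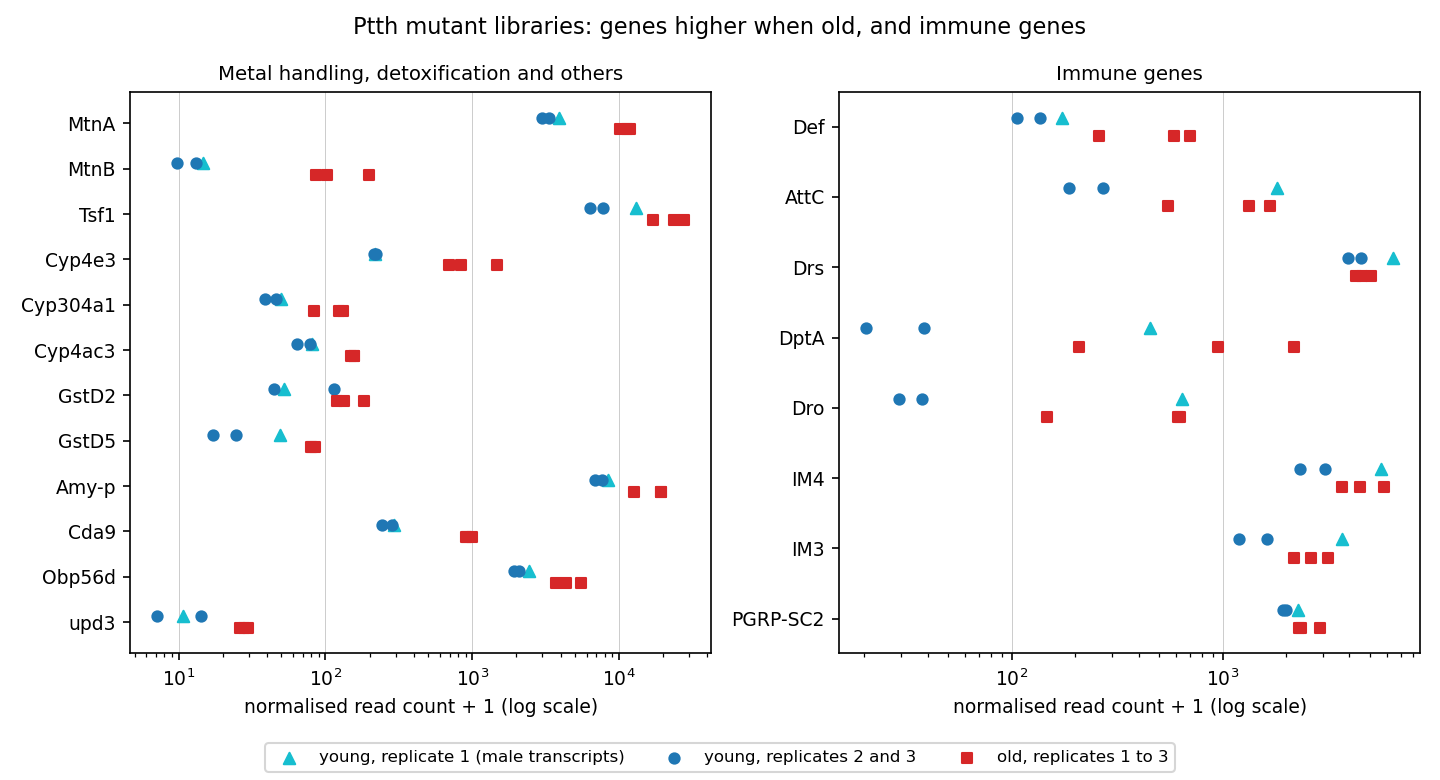
Normalised read counts plus 1, on a log axis, of genes called higher in old mutants (left) and of immune genes (right) in each of the 6 mutant libraries, with the same marks as in the plot of lower genes. The triangle of young replicate 1 lies among the old libraries in DptA and IM4 and above all of them in AttC, Dro and IM3, for AttC at 1819 against 186 and 269 in the other young libraries.

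In the gut, Amy-p, a secreted amylase that splits starch, rose from 8355, 7612 and 6895 to 19417, 12592 and 19317 (1.14, SE 0.20, adjusted p = 0.00575). It was the only called gene of 19 amylases, maltases and gut lysozymes, where 1.81% of all genes were called. Mal-A1, a maltase, was at 9383, 10752 and 10522 and then at 13653, 12804 and 14573 (0.42, adjusted p = 0.0249), which passed at any fold only. Of 27 serine proteases of the gut 0 were called, and Jon65Aiv stood at 50095, 37458 and 35807 in young and at 54195, 45948 and 40207 in old mutants (0.19, adjusted p = 0.797). Cda9, of a family of chitin deacetylases, rose from 293, 285 and 242 to 907, 927 and 995 (1.79, SE 0.24, adjusted p = 9.07e-04).

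Genes of the fat body and the oenocytes were counted next. Of 24 genes of lipid storage and mobilization 0 were called with all libraries. In that fit 21 had higher estimates and 3 were higher at any fold, where 2.47% of all genes were. Lip3 had the largest change of the list, 1.14 with all libraries and 1.49 without the 3 libraries. Its counts were low, at 5.86, 2.64 and 2.03 in young and 8.38, 5.98 and 11.3 in old mutants. apolpp, the apolipoprotein of the main lipid carrier of the haemolymph, was at 30038, 29586 and 34823 in young and at 62613, 55441 and 48039 in old mutants (0.81, SE 0.17, adjusted p = 0.0152). The larval serum protein gene Lsp1gamma was called only with all libraries (29.3, 18.5 and 21.3 to 7.44, 0 and 2.42, -2.94, adjusted p = 0.0267, and -2.76, adjusted p = 0.128, without the 3 libraries). Cyp4g1, which makes the cuticular hydrocarbons in oenocytes, was at 116257, 90327 and 96438 and then at 140030.0, 127303 and 113328 (0.33, adjusted p = 0.394).

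No gene of the ovary lists was called. The 4 genes for yolk proteins and their receptor summed to 435909, 411542 and 415439 in young and to 620452, 541497 and 493477 in old mutants, higher in every old library, although 0 of 4 passed at any fold. Yp3 stood at 161905, 154996 and 162744 and then at 260182, 224666 and 202894 (0.51, SE 0.18, adjusted p = 0.137). Of 16 genes of the chorion and vitelline membrane 15 had higher estimates (median 0.45, and 0.71 without the 3 libraries). The lists of 17 germline and oocyte genes, 15 piRNA genes and 29 cell cycle genes had medians of -0.08, -0.08 and -0.10, with 0 genes past an adjusted p of 0.05 in the fit to all libraries and 3, 1 and 0 genes at an unadjusted p under 0.05. osk, the determinant of the germ plasm, was at 22151, 25044 and 24675 and then at 19410.2, 21571 and 20707 (-0.22, adjusted p = 0.145). The 4 early embryo markers summed to at most 1.99 in each mutant library at both ages.

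In the machinery of protein synthesis and turnover no gene was called, which took in 87 cytosolic and 72 mitochondrial ribosomal proteins, 31 proteasome subunits, 15 heat shock proteins, 21 autophagy genes and 24 subunits of the vacuolar proton pump. The medians of these lists lay between -0.05 and 0.06, and at an unadjusted p under 0.05 they held 2, 3, 1, 0, 2 and 2 genes in the same order. Hsp83, the fly HSP90, was at 61216, 66886 and 63079 in young and at 67083, 65528 and 65794 in old mutants (0.05, SE 0.08, adjusted p = 0.836). The selective autophagy receptor ref(2)P was higher at any fold (9375, 9271 and 9401 against 11448, 10851 and 11059, 0.25, adjusted p = 0.0149), a small change with groups that lay apart. The lists of 8 clock genes, 15 genes of insulin signalling and 28 genes of ecdysteroids and juvenile hormone had 0 called genes as well, with 2, 3 and 3 genes at an unadjusted p under 0.05. In all, limma called 0 genes in 31 of the 49 lists. edgeR on the recovered reads called 0 genes in each of these lists too, and DESeq2 called 0 in each except the male reproductive tract, where it called 11 of 56 genes lower when old, with young replicate 1 as the only mutant library at high counts.

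Several of the largest changes were in genes that the table lists by a CG number alone. CG7017 had the largest rise among the named genes, from 12.7, 2.64 and 3.05 to 169, 122 and 283 (4.95, SE 0.49, adjusted p = 1.12e-04). CG34227 rose from 222, 193 and 183 to 1432, 686 and 1233 (2.42, SE 0.25, adjusted p = 1.45e-04), and CG4757 from 72.3, 14.1 and 15.2 to 202, 103 and 169.6 (2.55, SE 0.49, adjusted p = 0.00888). The other genes of this kind with large rises, CG34423, CG9759, CG43055, CG7567 and CG17107, had log2 changes between 1.98 and 2.63. Among falls, CG7203 went from 527, 491 and 545 to 38.2, 37.9 and 38.8 (-3.73, SE 0.17, adjusted p = 2.77e-07), and its 3 old libraries were almost equal. CG15617 fell from 238, 235 and 223 to 25.1, 31.9 and 10.5 (-3.44, SE 0.34, adjusted p = 1.12e-04). CG12998, CG13091 (Sgp), CG34109 and CG7409 changed by -2.98, -2.46, -2.36 and -2.33 on the log2 scale. All 14 of these genes were called in both fits.

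Of 307 tested long noncoding RNAs 11 rose and 8 fell, and 13 and 8 without the 3 libraries. Over all genes 0.789% rose and 1.02% fell, and 1.32% and 0.851% without the 3 libraries. lncRNA:CR44138 rose from 44.0, 32.5 and 26.4 to 157, 119.6 and 163 (2.08, SE 0.24, adjusted p = 3.3e-04). lncRNA:CR45456 and lncRNA:CR45457, which lie 318 bases apart on 2L, both fell. lncRNA:CR45456 had 79 reads in young and 3 in old mutants, a ratio of 27.8 (interval 9.16 to 138), and lncRNA:CR45457 had 48 and 2, a ratio of 25.3 (interval 6.64 to 215), with its call lost under quantile normalisation (adjusted p = 0.238). The next gene, CG17005, starts 191 bases further on and was looked up after these values were seen. It fell from 88.9, 63.3 and 69.1 to 2.79, 4.98 and 4.04 (-3.93, SE 0.30, adjusted p = 1.49e-05). The call of lncRNA:CR44651 (62.5, 44.9 and 47.8 to 12.1, 9.96 and 11.3, -2.11, adjusted p = 0.0182) was lost when any mutant library was left out (adjusted p from 0.0548 to 0.072), although its groups lay apart.

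The last comparison asked which of these changes differed from those of wild type females. Of the 206 called genes 199 changed with the same sign in wild type, and of the 166 called in both fits 161 did. The share with the same sign over all genes was not counted, so these counts stand without a baseline. The difference itself, the interaction of genotype and age, passed at an adjusted p under 0.05 in 18 of 11403 genes (0.158%), 16 of them (0.14%) with a higher and 2 (0.0175%) with a lower change in mutants than in wild type, and in 6 genes (0.0526%) without the 3 libraries. Among the 206 called genes 2 passed. CG7567 rose in mutants from 126, 139 and 114 to 501, 629 and 473, while wild type stood at 502, 624 and 551 in young and at 784, 756 and 408 in old flies (interaction 1.90, SE 0.30, adjusted p = 0.0448). Young mutants thus held the low value, and old mutants lay within the range of wild type. hll rose in mutants from 27.4, 7.92 and 22.4 to 120.0, 111 and 55.7, and in wild type it went from 198, 71.0 and 56.0 to 23.9, 10.5 and 7.94 (interaction 5.11, adjusted p = 0.0448). The call of hll between ages of mutants (2.34, adjusted p = 0.033) was lost without the 3 libraries (adjusted p = 0.0592), with no filter, with quantile normalisation and with edgeR (adjusted p from 0.0565 to 0.0689 over these 4), and without young replicate 2 or 3 or old replicate 1 or 2 (adjusted p from 0.0717 to 0.147). Neither interaction passed without the 3 libraries (adjusted p = 0.532 and 0.343).

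Act88F passed the interaction test without being called in mutants. In wild type it went from 11359, 10345 and 4959 to 1067, 1350.2 and 985, against the flat values of the mutants given above (interaction 3.32, adjusted p = 0.0147, and 2.69, adjusted p = 0.181, without the 3 libraries). For the prophenoloxidases and the antimicrobial peptides the changes of both genotypes are given side by side. PPO1 changed by -1.93 in mutants and by -3.30 in wild type (interaction 1.37, adjusted p = 0.169), and PPO2 by -1.82 and -3.52 (interaction 1.70, adjusted p = 0.0647). The antimicrobial peptides had a median of 1.11 in mutants and 3.55 in wild type (2.14 and 3.98 without the 3 libraries), and none of them passed the interaction test. AttC changed by 1.25 in mutants and 3.46 in wild type (interaction adjusted p = 0.734). Def went the other way from its list, with 1.81 in mutants and 0.67 in wild type (interaction adjusted p = 0.732). The muscle lists had medians of -1.09, -1.37 and -0.74 in wild type beside -0.78, -0.95 and -0.73 in mutants. Without the 3 libraries they were -0.80, -1.12 and -0.49 in wild type, with 1 young library left, beside -0.72, -0.91 and -0.69 in mutants. With all libraries Act88F was their only member with an interaction that passed.

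**Figure D5:**
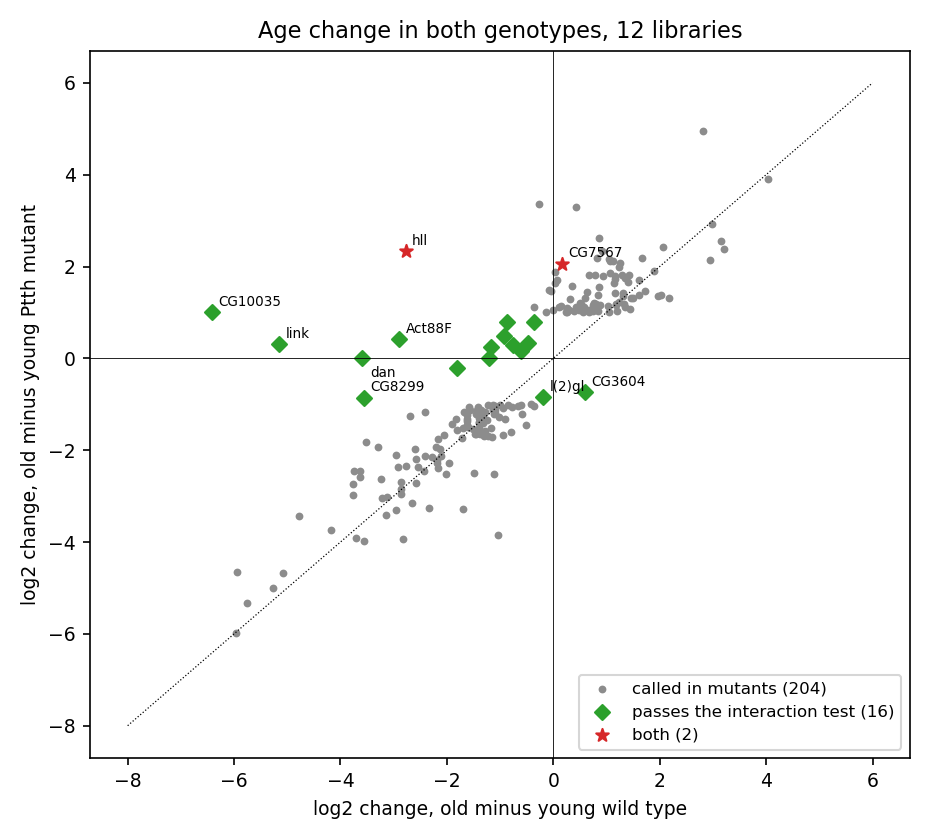
Log2 change from young to old in wild type on the x axis and in Ptth mutants on the y axis, in the fit to all 12 libraries, for the 206 genes called in mutants and the 18 genes that passed the interaction test. Grey points are called in mutants only and mostly follow the dotted line of equality, diamonds are the 16 genes that passed the interaction test without a call in mutants, and stars are CG7567 and hll, which had both.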

How the data were processed

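RNA of whole females was sequenced after poly(A) selection. Each sample carries the same account of more than 1 library preparation, so a preparation batch was not tested. The submitters' processing notes name STAR 2.7.3a, HTSeq 0.11.2 and DESeq2 1.20.0. What the authors deposited is a normalised signal, in which a library size factor divides the count of reads per gene, and all of the values gave back whole reads within a tolerance of 0.01. Sources used here give no strand setting for the counting.

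Of 17714 gene rows, 11403 reached a normalised count of 10 in 3 or more of the 12 libraries and were tested. The two-sided moderated test of limma 3.58.1 with an intensity trend (R 4.3.3) was fitted to log2(value + 1) with 4 group means, so log2 changes of low genes are understated, and p-values were adjusted over all genes by the Benjamini-Hochberg method. Calls between ages needed an adjusted p under 0.05 and over 2-fold, and the interaction the adjusted p alone. A single gene tested by permutation of 3 against 3 libraries could not go below p = 0.1. The libraries of a group are called biological replicates, with no word on separate cultures, and p-values refer to the spread among these libraries only. Alternatives changed the pseudocount, filter, scaling, libraries, weights and block, and tested the recovered reads with edgeR 4.0.16 and DESeq2 1.42.0. The edgeR test without the 3 libraries was chosen after seeing the data. The steps were tested on simulated counts.

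The members, the 49 gene lists and the rule for named genes were chosen with earlier results of these data known, and Acp1 and Acp65Aa were moved to the cuticle list after their values were seen. The rule took Ptth and tor, the 15 largest changes in each direction called in both fits with a mean of 50 or more and groups that did not overlap, up to 6 called members of each list or its 2 most abundant members, and called genes with a passing interaction. Symbols were matched to a later annotation of the same assembly, which held 11363 of the tested genes.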

Additional observations from a re-analysis of the deposited data

Results flagged for a closer look

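In total, 6 genes with an adjusted p under 0.05 for age in mutants also changed differently with age in the genotypes, by the interaction of genotype and age in limma over all 12 libraries. The values are the log2 change with age in mutants minus that in wild type. For hll this difference was 5.11, with a higher level in each old mutant library than in any young one and the reverse in wild type. CG7567 had a difference of 1.9 and CG32557 one of 1.67, where CG32557 stood at 326, 253 and 246 in young and 451, 510.2 and 463 in old mutants, and at 399, 364 and 328 in young and 208, 205 and 179 in old wild type. NtR differed by 1.15, higher in old than in young mutants (0.78) and lower in old wild type (-0.37). CG3604 differed by -1.32, lower in old mutants (-0.73) and higher in old wild type (0.59). l(2)gl, a cell polarity gene at the tip of chromosome 2L, differed by -0.654, at 6013, 6236 and 5904 in young and 3557, 3286 and 3315 in old mutants. Without the 3 libraries that held male transcripts, CG32557 passed (adjusted p = 0.0357) and the other 5 did not (adjusted p from 0.0742 to 0.532).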

How the results depend on the processing

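No named gene that was called changed its sign under any alternative. Against 206 calls (90 higher, 116 lower), quantile normalisation gave 137 (56 and 81), library weights gave 148 higher, the fit without the 3 libraries 150 higher, and edgeR without them, chosen after seeing the data, 321 (196 higher). Leaving out 1 library gave 149 to 236 calls, with 46 to 118 higher and 95 to 124 lower, the 46 without mutant old replicate 1 and 56 without mutant young replicate 2. The 18 interaction genes became 40 with no filter, 6 without the 3 libraries, 6 with edgeR, 6 with edgeR without them, 123 with DESeq2 and 3041 with library weights, and 4 to 201 when 1 library was left out, the 201 without wild type young replicate 3. The causes were not tested. The fit to the 6 mutant libraries alone called 223 genes, 193 of them among the 206. This and all other counts were within 1.5 times.

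Of 66 named genes that were called, 48 were called in each fit that left out 1 library and 18 were lost in at least 1. Replicate numbers did not pair the mutant libraries (correlations of deviations -0.08, 0.18 and -0.27), and the fit with a replicate block called 199 genes. Depth limited genes with few reads, such as Acp1, whose fold rests on counting intervals.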

Other observations

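Called genes below the mean of 50 that the naming rule used were looked at after their values were seen. CG11458 fell from 104, 55.4 and 74.2 to 0.931, 0.9964 and 0.807 in old mutants, and CG13026 from 91.8, 86.2 and 78.2 to 1.86, 0.9964 and 2.42. CG30289 rose from 1.95, 1.76 and 5.08 to 48.4, 63.8 and 50.9. All 3 were called in both fits. The transcription factor genes Sox21a and Sox100B, both known from the intestinal stem cell lineage, rose too. Sox21a went from 28.3, 17.6 and 14.2 to 70.7, 64.8 and 76.7 (1.82, adjusted p = 5.17e-04) and Sox100B from 22.5, 15.0 and 14.2 to 45.6, 38.9 and 45.2 (1.30, adjusted p = 0.00291). Listericin, an antibacterial peptide gene outside the list of antimicrobial peptides, rose from 598, 317 and 344 to 1456, 723 and 1109 (1.38, adjusted p = 0.0163), as did its neighbour CG13215, 1631 bases away, from 17.6, 7.92 and 6.10 to 43.7, 23.9 and 44.4 (1.81, adjusted p = 0.0218).

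roX1, a noncoding RNA of male dosage compensation, was higher in old mutants when the libraries with male transcripts were left out. lncRNA:roX1 stood at 502 in young replicate 1, at 36.1 and 31.5 in young replicates 2 and 3 and at 138, 112 and 115.5 in old mutants (1.81, adjusted p = 0.00449 without the 3 libraries, and 0.53, adjusted p = 0.871, with all of them). The male tract markers summed to at most 36.3 in the old mutant libraries.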
